A study of Brassica rapa with 36 samples.

Results

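Microspore-derived embryos of Brassica rapa line K2 were compared with K2 leaf, that is, the first cell divisions of an embryo that starts from an immature pollen cell were set against a differentiated photosynthetic organ of the same line. All 9 embryo libraries formed 1 group, made of 3 libraries each of 2-cell, 4-cell and 8-cell embryos, and the 3 K2 leaf libraries formed the other. The comparison therefore used 12 of the 36 libraries of the series, and all 47135 gene IDs of the count tables entered it. K2 responds to induction of androgenesis by heat and 49CX does not, per the design text. All 12 libraries have the K2 genotype, and the leaf libraries are labelled as stalk leaf. The labels call the embryo libraries embryos with their cell number, and their origin from microspores is taken from the design text. Ages, cell numbers per library, the length and temperature of the heat shock and whether replicates came from separate plants are not stated in the labels. They do not say how embryos were separated from microspores that did not divide, so what other cells an embryo library holds is not known here. RNA was taken from lysed isolated cells, and strand-specific libraries were made by a low-input method. The strand setting of the counting is not stated, so overlapping and antisense genes may share reads.

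In androgenesis a microspore leaves the path to pollen and starts to divide as an embryo would. Normal development builds a store of transcripts for pollen tube growth, whereas an early embryo depends on growth, translation and division genes and has no working photosynthetic apparatus. Leaf RNA, by contrast, is dominated by transcripts for light harvesting, carbon fixation and photorespiration. None of these genes could be looked up by name: the tables carry IDs without names, and 0 of the 47135 IDs matched the RefSeq gene table of assembly CAAS_Brap_v3.01. Gene groups were therefore built from other libraries of the series, and the IDs are given as deposited. The embryo label could not be checked against embryo marker genes for the same reason.

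The embryo libraries were shallow and uneven. They held 6021 to 170479 gene counts with a median of 70395, against 761216, 938251 and 1179935 in leaf. The lowest were 2-cell replicate 3 with 6021 and 4-cell replicate 1 with 8549. Levels are given as CPM, each count divided by the gene counts of its library and put on the usual common scale. A floor of 3 counts stands for 498 CPM in 2-cell replicate 3, and for 2.54 to 3.94 CPM in the leaf libraries. Floors and intervals take in the error of counting alone: no molecular identifiers were reported, and reads may be copies of 1 molecule. Pollen transcripts held 0.394% to 15.7% of the gene counts of single embryo libraries, most in 8-cell replicate 3 and 2-cell replicate 2. Call counts over all IDs and in the leaf, pollen, microspore, heat-raised and heat-lowered sets are given with and without these libraries. The shares of the called IDs in other libraries and the detection counts rest on calls that include them. Over the 3600 IDs tested, log2 CPM of leaf libraries correlated with a Pearson r of 0.970 to 0.976 and that of embryo libraries with an r of 0.142 to 0.758 over 36 pairs (median 0.479). These are correlations across genes, which are not independent replicates, and libraries differ in depth. Embryo libraries of the same stage had a median r of 0.498 over 9 pairs and those of different stages 0.473 over 27 pairs. The closest pairs crossed stages: 2-cell replicate 2 with 8-cell replicate 3 (0.758) and 2-cell replicate 1 with 8-cell replicate 1 (0.757). The biological coefficient of variation, edgeR's measure of spread between libraries beyond counting, was 0.793 over the 9 embryo libraries and 0.247 over the 3 leaf libraries.

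Embryos and leaf differed in most of the IDs that could be tested. Of 3600 IDs, 2391 (66.4%) were called at an adjusted p under 0.05 in edgeR's quasi-likelihood test with Benjamini-Hochberg adjustment. In embryos 1127 IDs (31.3%) rose and 1264 (35.1%) fell. The fitted change of those that rose had a median of 5.08 on the log2 scale, or 4.999 with IDs that had no leaf count set to their lower bound, and the median of those that fell was -2.81 either way. The median over all 3600 IDs was -0.09. Where levels are compared without a model, the CPM of all 9 embryo libraries lay outside the range of the 3 leaf libraries for 1016 IDs (28.2%), which were 249 above leaf (6.92%) and 767 below leaf (21.3%). Of the called IDs, 205 that rose and 767 that fell had no such overlap. An ID with 0 counts in any embryo library cannot lie above leaf, and 225 of the 1127 risen IDs had a count in all 9. Zeros in shallow embryo libraries also help an ID to lie below leaf. The counts above and below leaf therefore depend on depth and cannot be compared with each other.

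**Figure D1:**
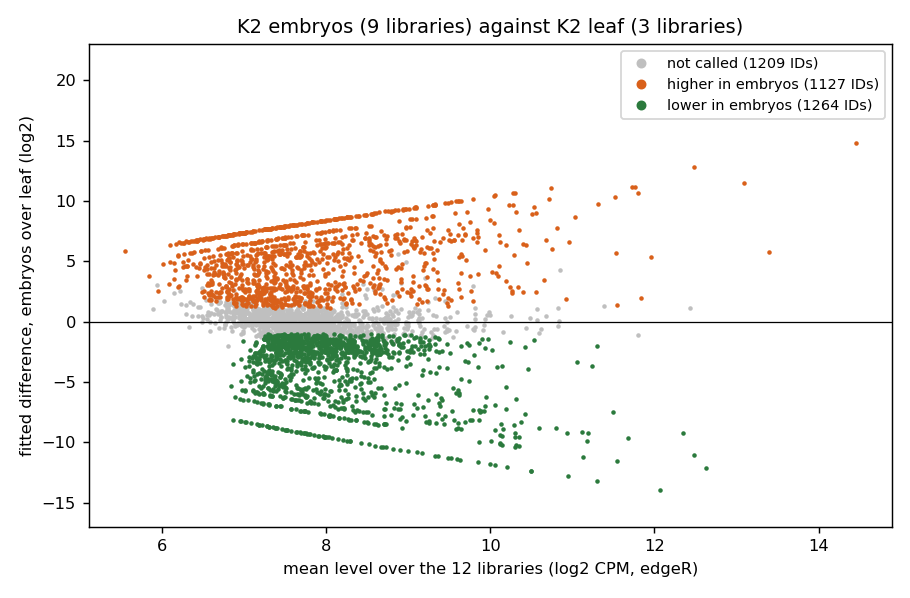
Fitted log2 difference, embryos over leaf, against the mean log2 CPM over the 12 libraries for the 3600 IDs tested, 1 point per ID. The 1127 IDs higher in embryos and the 1264 lower lie on both sides of a median of -0.09.

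The number of IDs called moved with single libraries, and so did the number of IDs that passed the filter on low counts. Without 2-cell replicate 2 there were 1560 calls among 2221 IDs tested, and without 8-cell replicate 3 there were 1555 among 2248. Without leaf replicate 3 the falls numbered 820 among 3295. With libraries scaled by size alone 1416 IDs rose and 961 fell, and the median of all IDs stood at 0.60 in place of -0.09. Of the 2391 calls, 1584, 1595 and 1953 were tested without those libraries and all 2391 under the other scaling, and none of those tested was called in the opposite direction.

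The 2 IDs that rose most were BraC04g021950.1 and BraC04g012970.1, of the called IDs whose embryo and leaf libraries did not overlap and whose log2 CPM averaged 3 or more. BraC04g021950.1 had a lowest level of 5526 CPM, a median of 14498 and a highest of 49645.5 over the 9 embryo libraries, against 0 counts in each of the 3 leaf libraries. The lowest value was in 4-cell replicate 3 and the highest in 8-cell replicate 2, where 3704 of 74609 gene counts came from this ID alone. Its stage mean was 8917 ± 1800 CPM at 2 cells, 16701 ± 9718 CPM at 4 cells and 29583 ± 18095 CPM at 8 cells (SD, n = 3 each). These means stand in the order of the stages, and the 3 values at 8 cells lay above those at 2 cells, but both ranges overlapped with that at 4 cells, and the F test of stage gave an unadjusted p of 0.0526 and an adjusted p of 0.484 (edgeR). Against a floor of 3 counts over the leaf group, 1.04 CPM, its mean of 18400 CPM in embryos was at least 17660-fold higher than in leaf. This bound scales libraries by size alone, whereas the edgeR test used other factors (adjusted p = 3.55e-07). Before the embryo it was low or not detected. It had 23.8 ± 2.16 CPM in heated K2 microspores, 3 counts over the 3 libraries of unheated K2 microspores, 0 counts in K2 late microspores and 0 in the single usable pollen library. In 49CX leaf it had 2 counts over 3 libraries.

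BraC04g012970.1 had a lowest level of 1222 CPM, a median of 5414 and a highest of 9963 over the embryo libraries, and again 0 counts in each leaf library. The highest value was in 2-cell replicate 2 and the lowest in 8-cell replicate 1, and all 9 embryo libraries lay above leaf. The mean of 4868 ± 2655 CPM (SD, n = 9) was at least 4672-fold higher than in leaf with libraries scaled by size alone (edgeR with its own factors, adjusted p = 2.94e-07). In microspores it stood at 374 ± 127 CPM in heated and 145 ± 41.7 CPM in late K2 microspores, while unheated K2 microspores and pollen had 0 counts. Over all 49CX microspore libraries the ID had 1 count, in heated ones, and it had 2 counts over the 3 libraries of 49CX leaf. A difference among stages was not called for this ID (F test, adjusted p = 0.946).

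The 2 IDs that fell most, BraC04g013150.1 and BraC03g021290.1, had 0 counts in all 9 embryo libraries, which together held 689147 gene counts. BraC04g013150.1 had 6814, 5998 and 5809 CPM in leaf replicates 1, 2 and 3. Against a floor of 3 counts over the embryo group, 4.35 CPM, it was at least 1426-fold lower in embryos (edgeR, adjusted p = 1.96e-07). BraC03g021290.1 had 4484, 2748 and 3467 CPM in the leaf libraries and was at least 819-fold lower in embryos (edgeR, adjusted p = 3.4e-07). Both IDs were also leaf transcripts in the other line, at 7404 ± 2558 and 1507 ± 149 CPM in 49CX leaf. Both were present in K2 late microspores, at 992 ± 45.8 and 453 ± 1.75 CPM, and had in heated K2 microspores 18.5 ± 12.4 and 34.2 ± 17.3 CPM (SD, n = 3 each). No test was made between these microspore groups here.

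**Figure D2:**
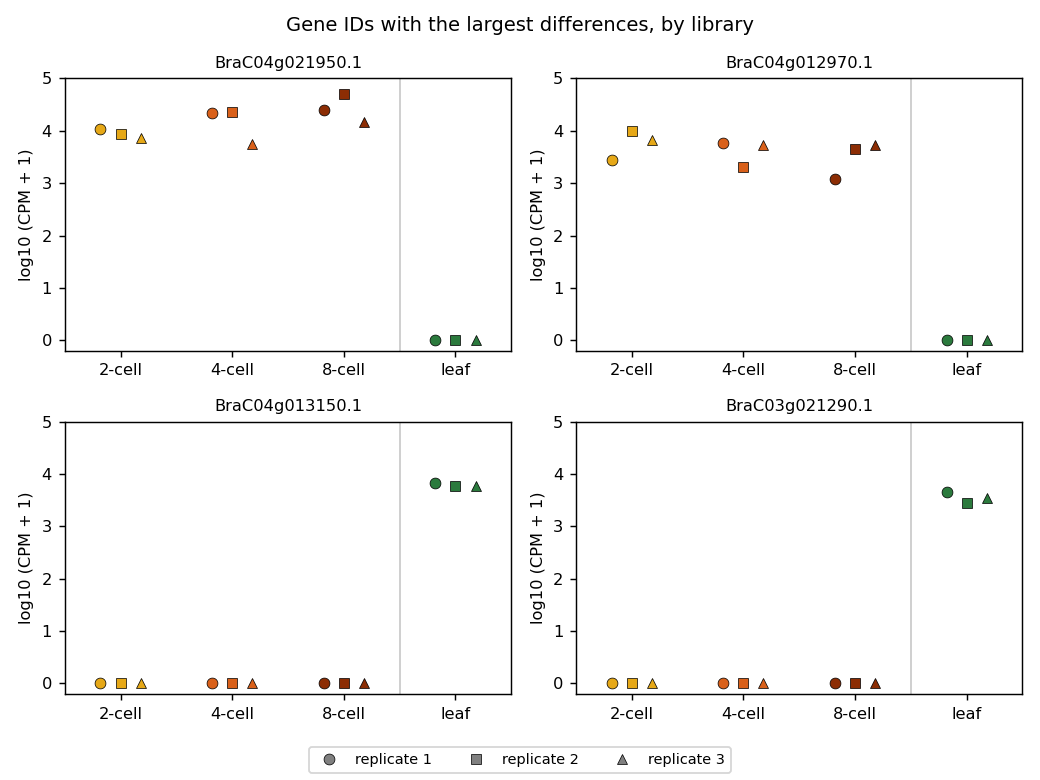
Level of the 4 IDs with the largest differences in each library, as log10 of CPM plus 1, by embryo stage and in K2 leaf, with 1 symbol per replicate. Both IDs in the top row have counts in all 9 embryo libraries and none in leaf, and both IDs in the bottom row have counts in the 3 leaf libraries alone.

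Leaf transcripts took a small share of every embryo library. A leaf set was built without any library of this comparison, as the 1375 IDs at least 4-fold higher in 49CX leaf than in 49CX microspores (edgeR, adjusted p under 0.05). Over all members it held 4.37% to 7.09% of gene counts in the 9 embryo libraries (median 5.88%), against 37.7%, 31.1% and 38.4% in leaf replicates 1, 2 and 3. The groups did not overlap, and the shallowest embryo library, 2-cell replicate 3, had the highest share among embryos, 7.09% (exact binomial 95% interval 6.46% to 7.77%). The K2 leaf libraries thus carried the leaf transcripts of the other line. A low share was not particular to embryos. The leaf set held 13.8% ± 0.241 in late, 7.65% ± 0.462 in unheated and 8.10% ± 0.119 in heated K2 microspores (SD, n = 3 each), and 1.18% in the pollen library. The 100 most abundant IDs of 49CX leaf stood further apart, at 0.469% to 0.708% in embryos and 12.3% to 16.9% in K2 leaf. They held 2.98% ± 0.0584 in late, 1.56% ± 0.182 in unheated and 0.625% ± 0.0190 in heated K2 microspores (SD, n = 3 each). Of these 100 IDs, 97 passed the filter on low counts, and 95 fell and 1 rose. Of the 1375 leaf set members 707 passed the filter, with 651 lower, 10 higher and a median of -4.03. Over all IDs tested 35.1% fell and 31.3% rose. Without 2-cell replicate 2 and 8-cell replicate 3, 648 members (91.7%) were lower and 11 (1.56%) higher, beside 34.5% and 28.4% of all IDs in that fit. Members that are high in leaf alone could pass the filter through leaf, so these counts describe the members that passed. Fewer cells of a type and less RNA per cell cannot be told apart in such libraries.

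Falls and rises were set apart by the level in the leaf of the other line. Of the 79 tested IDs above 1000 CPM in 49CX leaf, 78 fell in embryos and 1 rose. Of the 884 IDs between 100 and 1000 CPM, 741 fell and 14 rose. Between 10 and 100 CPM the calls were mixed, with 371 of 1513 IDs lower and 252 higher. Below 10 CPM most called IDs were higher in embryos, with 682 of 931 higher and 69 lower. With no count in 49CX leaf, 178 of 193 were higher and 5 lower. An ID that is low in leaf passes the filter only if it is high enough in embryos, so the last 2 classes had to hold mainly rises, and likewise IDs high in leaf pass through leaf.

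Pollen transcripts varied widely among embryo libraries. A pollen set was made of the 200 most abundant IDs of the single usable K2 pollen library that were outside the 200 most abundant of 49CX leaf. It held 0.394% of gene counts in 2-cell replicate 1, 12.6% in replicate 2 and 7.37% in replicate 3. In 4-cell replicates 1, 2 and 3 it held 5.45%, 1.01% and 4.79%, and in 8-cell replicates 1, 2 and 3 it held 0.513%, 1.05% and 15.7%. The leaf libraries held 0.270%, 0.378% and 0.224%. All 9 embryo libraries lay above leaf, the lowest of them by little: the exact binomial 95% interval was 0.365% to 0.425% in 2-cell replicate 1 and 0.365% to 0.392% in leaf replicate 2. In K2 pollen the set held 61.0%. In K2 microspores it held 8.06% ± 0.0447 in unheated, 0.758% ± 0.0296 in late and 0.534% ± 0.0107 in heated ones (SD, n = 3 each). Unheated microspores thus held more of it than most embryo libraries did. Of 157 members that passed the filter 134 (85.4%) rose and 1 (0.637%) fell, beside 31.3% and 35.1% of all IDs tested. These IDs are low in leaf and pass the filter through embryos, so the counts describe the members that passed. With the same 3600 IDs and without 2-cell replicate 2 and 8-cell replicate 3, a choice made after seeing the data because they were highest in this set, 76 (48.4%) rose and 3 fell, beside 28.4% and 34.5% of all IDs. With the 4 embryo libraries under 4% in the set, 21 (13.4%) rose and 5 (3.18%) fell, beside 28.7% and 32.7% of all IDs. Both alternatives left libraries out by their level of this set, which lowers its counts by construction.

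IDs of the other line's microspores also took a larger share of embryo counts than of leaf counts. The microspore set, 1408 IDs at least 4-fold higher in 49CX microspores than in 49CX leaf, held 4.02% to 22.4% of gene counts in embryos (median 8.20%) and 1.15% to 1.70% in K2 leaf, with no overlap. The highest embryo libraries were the same, 8-cell replicate 3 with 22.4% and 2-cell replicate 2 with 18.7%, and the lowest was 2-cell replicate 1 with 4.02%. The pollen set shared 175 of its 200 IDs with this set, which is 87.5% of the pollen set and 12.4% of the microspore set. Of 311 members that passed the filter, which an ID low in leaf passes through embryos, 251 (80.7%) rose and 8 (2.57%) fell, beside 31.3% and 35.1% of all IDs. Without 2-cell replicate 2 and 8-cell replicate 3 the same members gave 158 rises (50.8%) and 8 falls (2.57%), beside 28.4% and 34.5% of all IDs. With the 4 libraries under 4% in the pollen set 94 rose, and this share of 30.2% was near the 28.7% over all IDs in that fit. Falls stayed rare among the members, 8 (2.57%) beside 32.7% of all IDs. The median log2 change of the members was 2.15, beside -0.05 over all IDs in that fit. Together the microspore and pollen sets held 254 of the 1127 IDs that rose in embryos, or 22.5%. The share of pollen transcripts moved with these rises, and its part in them was not tested. Over all 3600 IDs, 1021 rose and 1242 fell without those 2 libraries, and 2208 of the 2391 calls remained in the same direction. With 4 embryo libraries, those under 4% in the pollen set, 2074 remained.

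IDs raised by heat shock in K2 microspores stood higher in embryos than in leaf. This heat-raised set, 951 IDs at least 4-fold higher in heated than in unheated K2 microspores (edgeR, adjusted p under 0.05), held 10.6% to 17.0% of gene counts in embryos (median 12.6%) and 3.89% to 4.96% in leaf. Every embryo library lay above every leaf library. Its mean was 15.1% ± 2.49 at 2 cells, 11.7% ± 1.02 at 4 cells and 14.8% ± 2.95 at 8 cells, and it held 15.5% ± 0.682 in the heated microspores that helped to define it (SD, n = 3 each). Of 333 members that passed the filter, 176 (52.9%) rose in embryos and 32 (9.61%) fell, beside 31.3% and 35.1% of all IDs tested. The other 618 members did not pass. An ID low in leaf passes the filter through embryos, so here and in the fits below the counts describe the members that passed. The 2 libraries lowest in the pollen set, 2-cell replicate 1 and 8-cell replicate 1, both under 1% there, had 16.6% and 17.0% here. Not every library followed this order. In 4-cell replicate 2, with 1.01% in the pollen set, the heat-raised set held 12.6%. In 2-cell replicate 3, with 7.37% in the pollen set, it held 16.4%. A relation between the shares of these sets was not tested. With the 4 embryo libraries under 4% in the pollen set, 184 of the 333 (55.3%) rose and 26 (7.81%) fell, beside 28.7% and 32.7% of all IDs. Without 2-cell replicate 2 and 8-cell replicate 3, 171 (51.4%) rose and 30 (9.01%) fell, beside 28.4% and 34.5% of all IDs.

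The heat-lowered set, 1020 IDs at least 4-fold lower in heated than in unheated K2 microspores, held 2.39% to 11.95% of gene counts in embryos (median 4.30%) and 11.5% to 15.4% in leaf. The ranges overlapped through 8-cell replicate 3, at 11.95% against 11.5% in leaf replicate 2. Of the 1020 IDs, 804 did not pass the filter on low counts, so the call counts that follow describe those that passed. Of 216 members tested 86 (39.8%) were called higher and 88 (40.7%) lower, beside 31.3% and 35.1% of all IDs. Their median change was 0.04. Without 2-cell replicate 2 and 8-cell replicate 3, 63 (29.2%) were higher and 89 (41.2%) lower, beside 28.4% and 34.5% of all IDs. With the 4 libraries under 4% in the pollen set, 34 (15.7%) were higher and 86 (39.8%) lower, beside 28.7% and 32.7%. The heat-lowered set shared 77 IDs with the pollen set, by which these libraries were left out. This set shared 586 IDs with the microspore set, 57.5% of the heat-lowered set and 41.6% of the microspore set. It shared 79 with the leaf set, 7.75% and 5.75%, and 53 with the 100 most abundant IDs of 49CX leaf. Those 100 IDs held 12.3% to 16.9% of gene counts in K2 leaf and 0.469% to 0.708% in embryos. How much of the heat-lowered share in leaf came from these 53 IDs was not tested. The 100 most abundant IDs of K2 late microspores, the stage before heat, held 1.81% to 3.61% in embryos and 5.50% to 6.36% in leaf. Of 52 that passed the filter 30 (57.7%) fell and 8 (15.4%) rose, beside 35.1% and 31.3% of all IDs tested. The other 48 did not pass. An ID low in embryos passes the filter through leaf, so these counts describe the members that passed. Transcripts most abundant in the starting cells took a smaller share of embryo counts than of leaf counts in each library. In K2 microspores they held 11.0% ± 0.174 in the late ones that define them, 4.93% ± 0.0779 in unheated and 2.74% ± 0.122 in heated ones (SD, n = 3 each). The embryo range thus took in the level of heated microspores. Of the 100 IDs, 17 were in the leaf set and 14 among the 100 most abundant of 49CX leaf. Of all calls, 694 of the 1127 risen IDs (61.6%) and 547 of the 1264 fallen IDs (43.3%) belonged to none of the 7 sets.

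**Figure D3:**
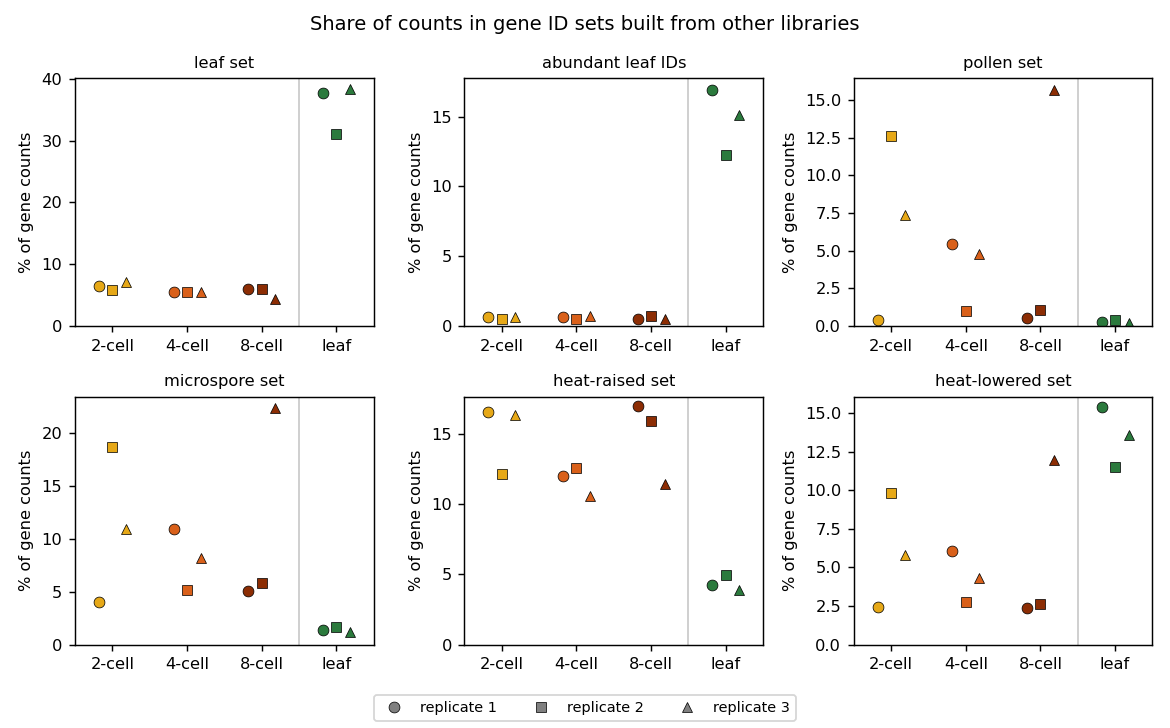
Percent of gene counts held by 6 sets of gene IDs that were built from libraries outside the comparison, in each library by embryo stage and in K2 leaf, with 1 symbol per replicate. The leaf set lies between 4.37% and 7.09% in embryos, and the pollen set runs from 0.394% to 15.7% in embryos while leaf stays at or below 0.378%.

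The called IDs were followed into the libraries outside the comparison. The 1127 IDs that rose held 33.4% ± 4.74 of gene counts at 2 cells, 27.1% ± 4.36 at 4 cells and 35.3% ± 4.13 at 8 cells, and 1.18% ± 0.172 in K2 leaf (SD, n = 3 each), values that the selection of the IDs fixes. In libraries with no part in the selection they held 1.31% ± 0.0806 in 49CX leaf, 2.78% ± 0.0318 in late, 7.94% ± 0.0362 in unheated and 6.12% ± 0.437 in heated K2 microspores, and 48.2% in the pollen library. Their median CPM was 5.24 in late, 7.44 in unheated and 25.0 in heated K2 microspores, and 0 in pollen. In pollen the share thus came from a minority of the IDs: 377 of the 1127 had a count there, and 222 reached 99.6 CPM. Of the 199 risen IDs with no leaf count, 193 had a count in at least 1 K2 microspore library, and 6 had none there or in pollen. In 49CX leaf 71 of the 199 had no count, and together the 199 held 0.0264% ± 0.0108 of its gene counts (SD, n = 3).

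The 1264 IDs that fell held 7.87% ± 0.504, 6.34% ± 0.728 and 6.52% ± 1.58 of gene counts in 2-, 4- and 8-cell embryos, and 44.6% ± 3.62 in K2 leaf, again fixed by their selection. In 49CX leaf they held 48.2% ± 2.89. K2 late microspores held 18.1% ± 0.333, unheated 12.6% ± 0.355 and heated ones 13.1% ± 0.216 (SD, n = 3 each), and pollen 2.39%. Nearly all of these IDs had a count in microspores, 1261 of 1264 in late, 1252 in unheated and 1242 in heated K2 microspores, and 637, 397 and 460 of them reached 99.6 CPM. All 75 fallen IDs with no embryo count had a count in at least 1 K2 microspore library. Their share was 0.591% ± 0.0217 in late, 0.251% ± 0.0423 in unheated and 0.0456% ± 0.00544 in heated K2 microspores, against 4.45% ± 0.536 in K2 leaf (SD, n = 3 each).

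**Figure D4:**
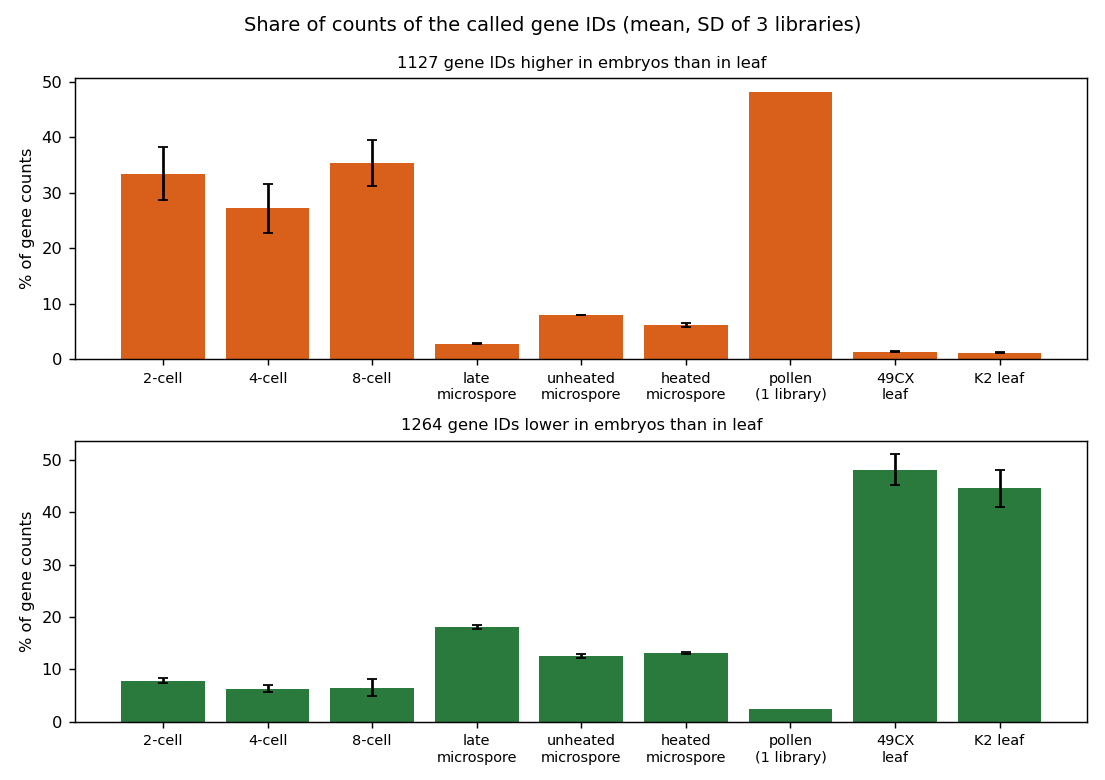
Mean percent of gene counts held by the 1127 IDs higher in embryos (top) and the 1264 lower in embryos (bottom), with the SD of 3 libraries, in embryos, microspores, pollen and leaf. The IDs higher in embryos hold 2.78% to 7.94% in K2 microspores and 48.2% in the single pollen library, and the IDs lower in embryos hold 48.2% in 49CX leaf.

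Detection across embryo libraries showed how far the calls were shared. Of the 1127 risen IDs, 225 had a count in all 9 embryo libraries and 425 in 8 of them, while 43 had a count in 4 or fewer. For a typical risen ID the embryo library with the highest CPM held 28.6% of the summed embryo CPM (median over IDs), and for 89 IDs it held over 50%. The highest library was most often 2-cell replicate 3, with 231 IDs, which is the shallowest and where 1 count weighs most. Among the 1264 fallen IDs, 114 had a count in all 9 embryo libraries, 414 in 4 or fewer and 75 in none. In the 6021 counts of the shallowest library an ID below 498 CPM is under the floor, so a fall from a leaf level under this is not detectable there.

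**Figure D5:**
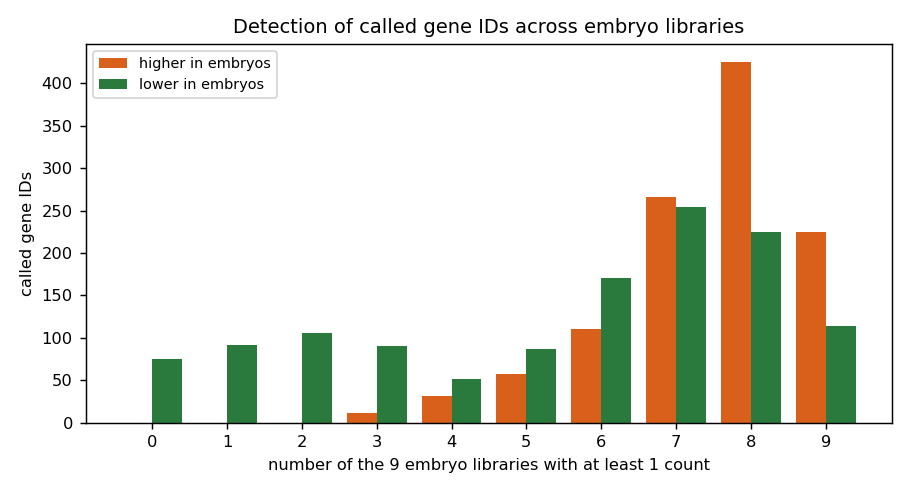
Number of called IDs (vertical axis) by how many of the 9 embryo libraries held at least 1 count (horizontal axis), for IDs higher and lower in embryos. Most of the 1127 higher IDs were seen in 7 to 9 libraries, and the 1264 lower IDs spread from 0 to 9.

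Each stage was also set against leaf. In a fit with 4 groups, 2057 IDs (57.1%) were called in 2-cell embryos against leaf, with 1009 higher (28.0%) and 1048 lower (29.1%). In 4-cell embryos 1804 were called (50.1%), 742 higher (20.6%) and 1062 lower (29.5%), and in 8-cell embryos 2240 (62.2%), 1080 higher (30.0%) and 1160 lower (32.2%; edgeR, Benjamini-Hochberg adjusted). The 3 comparisons share the leaf libraries, so their values stand side by side only. The 1127 risen IDs had a median log2 change of 4.73 at 2 cells, 4.02 at 4 cells and 5.04 at 8 cells, and the 1264 fallen IDs -2.75, -3.36 and -3.03. These IDs were selected on the same libraries, which fixes their direction at the stages, so these medians only describe them. Depth was lowest at 4 cells, with 76979 gene counts over its libraries, beside 341010 at 2 cells and 271158 at 8 cells. The 2-cell count fell to 1300 without 2-cell replicate 1, 1198 without replicate 2 and 1302 without leaf replicate 3, its falls to 679 without leaf replicate 1 and 684 without leaf replicate 2, and the 8-cell count to 1282 without 8-cell replicate 3 (8-cell falls to 732 without leaf replicate 3). Scaling by library size gave 1258 rises and 796 falls at 2 cells, 1026 and 692 at 4 cells, and 1300 and 936 at 8 cells.

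Stages differed from each other in few IDs. The F test of the 3 stages called 26 of 3600 IDs (0.722%; edgeR, adjusted), and 364 had an unadjusted p under 0.05. This fit takes its spread from the leaf libraries too. Fitted on the 9 embryo libraries alone, edgeR called 0 of 1566 IDs, with 125 at an unadjusted p under 0.05. Of the 26, 22 had risen in embryos as a whole, 0 had fallen and 4 were not called, where 31.3% of all IDs tested rose and 35.1% fell. Fallen IDs often have few embryo counts, 414 of the 1264 with a count in 4 or fewer embryo libraries. Stage differences are harder to call among such IDs, so this split does not describe risen and fallen IDs alike. The fitted level was highest in 2-cell embryos for 16 of them, in 4-cell embryos for 1 and in 8-cell embryos for 9. Pairwise, 26 IDs were called for 8-cell against 2-cell embryos, 3 for 4-cell against 2-cell and 1 for 8-cell against 4-cell. The count depends on the libraries: it was 5 without 2-cell replicate 1, 12 without 2-cell replicate 3, 41 without 4-cell replicate 3, 46 without 8-cell replicate 1 and 43 without 8-cell replicate 3. A missing call does not show equal levels, since the spread between embryo libraries of a stage was wide.

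Few IDs could be shown to be alike in embryos and leaf. The 95% interval of the change lay within 2-fold in both directions for 32 of 3600 IDs (0.889%). For the 1209 IDs not called, the interval reached 1.09 on the log2 scale to either side (median), so differences of about this size were not resolved.

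No difference in the breadth of expression was resolved. Thinned to 5000 counts, embryo libraries showed 3249 ± 218 genes (SD, n = 9) and leaf libraries 3203 ± 148 (SD, n = 3), a difference of 46.4 (exact 2-sided permutation test, p = 0.864) that turned to -9.73 without leaf replicate 1 and -1.33 without 4-cell replicate 3. The 50 most abundant genes held 15.1% ± 2.66 of the thinned counts in embryos and 13.8% ± 1.92 in leaf (SD, exact permutation p = 0.518). Reads in no annotated gene made up 66.4% ± 8.03 of reads assigned to a gene, to none or to several in embryos and 55.2% ± 2.09 in leaf (SD). The 4-cell replicates 2 and 3 were highest, at 76.9% and 78.8%, and 2-cell replicate 1 lay within the leaf range at 55.4%. This difference had an exact permutation p of 0.0182, where 9 against 3 libraries allow 0.00909 at the lowest, and 0.0545 after adjustment over the 3 measures, so it did not pass the correction.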

How the data were processed

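The authors deposited 1 table per library with unnormalized read counts for each gene ID. The submitters' processing notes list HISAT2, HTSeq, Picard and Trim Galore without versions. The sources used here give no genome build, annotation or strand setting. Reads aligned to several places are listed at 0 in every table, so IDs with near-identical copies may be undercounted. Library sizes leave out the summary entries of the tables. Reads in no annotated gene were 53.4% to 78.8% of those in a gene, in none or in several. K2 pollen replicates 2 and 3 held 0 gene counts and were not used.

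Tests used edgeR 4.0.16 (R 4.3.3, TMM factors, robust quasi-likelihood) on IDs that passed filterByExpr on embryo and leaf: at least 99.6 CPM in 3 libraries and 15 counts in all. In the 2 shallowest libraries 1 count exceeds this. DESeq2 1.42.0 was an alternative. Exact permutation tests used scipy 1.17.1. The code was tested on simulated data. Sets came from edgeR fits or mean CPM of libraries outside the comparison. IDs named are the 2 highest and 2 lowest fitted changes among called IDs without overlap whose log2 CPM averaged 3 or more. Their fold bounds use CPM by library size, without the TMM factors of the test. Those factors were 0.614 to 0.726 in leaf and 0.852 to 2.01 in embryos, and with them the bounds of the 2 risen IDs would be lower. Members and lists were chosen with earlier results of these data known. Marker lists could not be used without names. Nothing says that replicates came from separate plants: the spread behind each p-value is that between libraries and may be technical. Replicate pairs differed beyond sampling noise (chi-square per degree of freedom 2.15 to 16.3). Replicate numbers did not pair libraries across groups.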

Additional observations from a re-analysis of the deposited data

Results flagged for a closer look

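The level of BraC04g021950.1 in 8-cell replicate 2, 49645.5 CPM, lay far from the other 8 embryo libraries, of which the next highest had 24604 CPM. Among 14 measures over the 9 embryo libraries (3 of breadth, 7 set shares and 4 named IDs) it was the 1 with such a gap, and chance alone marks about 1 in 20. The effect against leaf differed among the embryo stages for 26 IDs by the F test, a number that changed with single libraries as given above and was 0 when the 9 embryo libraries were fitted alone.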

How the results depend on the processing

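The 4 named IDs kept their direction and call under all 28 alternatives in which each was tested. With no filter on low counts 12634 IDs were called, 5649 higher and 6985 lower, among 37835. Thinned to 6021 counts per library, 52 IDs passed the filter and 39 were called, 20 higher and 19 lower. Leaving out each library in turn gave 1555 to 2898 calls, 717 to 1406 higher and 820 to 1614 lower. Without 2-cell replicate 2 and 8-cell replicate 3 (chosen after seeing the data) it was 1411, 577 and 834, among 1951 tested. DESeq2's Wald test called 2616 IDs. By stage, no filter gave 7997 calls (3637 higher, 4360 lower) for 2-cell, 5621 (2329, 3292) for 4-cell and 7571 (3453, 4118) for 8-cell embryos against leaf, and 387 in the F test. With only the 6 libraries compared it was 4278 (1550, 2728), 3010 (2444 lower) and 4963 (1970, 2993), with 8944 to 10280 IDs tested. Library size alone gave 692 lower for 4-cell embryos. Leaving out 1 library gave 1198 to 2321 calls for 2-cell (506 to 1106 higher, 637 to 1215 lower), 1282 to 2539 for 8-cell (597 to 1259 higher, 685 to 1354 lower), and 5 to 46 in the F test. With the 9 embryo libraries alone edgeR's F test called 0 of 1566 IDs, with 125 at an unadjusted p under 0.05, and no other tool was run. With replicate number as a block 2333 IDs were called against leaf and 63 in the F test. Same-numbered libraries deviated with an r of -0.163 to 0.551 across genes, with 4 of 18 pairs over 0.1, and 6 of 18 correlated best with their own number, so they share only a number. For genes detected at 5000 counts the difference ranged from -9.73 to 130.2 without 1 library, and for reads in no gene from 9.66 to 12.6 percentage points. Other set sizes moved 16 set shares beyond 1 SD and changed no order of embryos and leaf. Where filters or libraries changed, so did the IDs tested, and other causes were not tested.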

Other observations

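Over all 47135 IDs, 33556 had a count in at least 1 of the 9 embryo libraries and 31017 in at least 1 of the 3 leaf libraries. The embryo libraries together held 689147 gene counts and the leaf libraries 2879402. These totals pool more libraries in embryos, and less alike ones, so they do not compare breadth. At 5000 counts per library no difference was resolved (exact permutation test, p = 0.864). Of the 47135 IDs, 6818 were seen in embryos and not in leaf, and 4279 in leaf and not in embryos. A count in all 9 embryo libraries was found for 727 IDs and in all 3 leaf libraries for 22269. In all 12 libraries 664 IDs had a count, and 24 had a count in every embryo library and none in leaf.

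Neighbouring ID numbers were compared as a description. In 171 pairs of consecutive IDs with both called, 106 (62.0%) changed in the same direction, 52 both higher and 54 both lower. Of all 2391 calls 47.1% were higher, so many pairs would share a direction by these shares alone. A link between neighbours was not tested. Runs were short, with 3 IDs the longest in either direction. Across the 10 prefixes of the IDs, 26.4% to 34.8% of tested IDs rose and 32.1% to 37.1% fell, close to the 31.3% and 35.1% over all.

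With 49CX leaf in place of K2 leaf, an alternative chosen after seeing the data that also changes the line, 2588 of 3644 IDs were called. Of the 2391 IDs called against K2 leaf, 2025 were tested there, 1739 were called in the same direction and 18 in the opposite one.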
